A study of Mus musculus with 24 samples.

Results

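RNA was sequenced from EMS404 cells, and 93 of the 16604 genes in the deposited expression table encode subunits of the mitochondrial respiratory chain and the ATP synthase, or proteins that carry those families' names. They were chosen by symbol, as protein-coding mouse genes beginning with Nduf, Uqcr, Atp5, Cox4i, Cox5, Cox6, Cox7 or Cox8, together with Sdha to Sdhd, Cyc1 and Cycs. The rule finds 96 genes in the mouse annotation, and Cox8b, Cox8c and a second identifier of Atp5o were not analysed here. The 93 genes comprise 36 subunits of complex I, 8 complex I assembly factors, 4 subunits of complex II, 9 of complex III, 18 of complex IV, 17 genes named for the ATP synthase, and cytochrome c (Cycs). Genes were placed by name, so a placement does not show that a product is a structural subunit. EMS404 is a hepatic stellate cell line from C57Bl6 mouse liver, made immortal with SV40 and carrying human TLR4, so every group shares these features of a single transformed line.

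The 24 libraries form 8 groups of 3. The 3 compounds were given with TGFb, as SB431542+TGFb, SR9011+TGFb and CLK8+TGFb, and there was a group with TGFb alone. The remaining groups had SB431542, SR9011 or CLK8 without TGFb, or DMSO vehicle. SB431542 blocks the kinase of the TGFb type I receptor, SR9011 activates the nuclear receptor REV-ERB, and CLK8 interferes with the clock protein CLOCK. TGFb was at 10 ng/mL for 24 h, after 24 h with compound alone. The labels state no compound dose, and they leave unsaid how long the groups lacking TGFb were cultured, so TGFb and time in culture cannot be told apart. Values are FPKM, which scale reads by transcript length and library total.

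The respiratory chain passes electrons from NADH through complex I, or from succinate through complex II, to ubiquinone, then through complex III to cytochrome c, and from there through complex IV to oxygen. Proton pumping by complexes I, III and IV drives the ATP synthase. Each of these enzymes except complex II mixes a few subunits encoded in mitochondrial DNA with many encoded in the nucleus. Catalytic core subunits are surrounded by small supernumerary subunits, several of which exist as tissue-restricted isoforms. Activated stellate cells are known to raise their energy metabolism as they turn into matrix-producing cells. No mitochondrially encoded gene (0 of the table's genes) was present, so the nuclear part alone is described.

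Promoter sequences from RefSeq (GRCm38.p6) were matched for 76 of the 93 genes. The nuclear respiratory factor NRF1 and the ETS-family factor GABP are known activators of respiratory chain genes. In windows reaching 250 bases before and 50 bases after the start site, the NRF1-type motif GCGCANGC was present, on either strand, for 27 of 76 member genes (35.5%), and for 11.2% of all 27025 genes with a window. The GABP-type motif CCGGAAG was present for 18 of 76 members (23.7%) and for 9.93% of all genes. The YY1-type motif AAGATGG was found for 12 members (15.8%) against 7.28% of all genes. The E-box CACGTG, bound by CLOCK and BMAL1, was found for 6 members (7.89%) against 8.09% of all genes. The element TAGGTCA, bound by ROR and REV-ERB receptors, was found for 3 members (3.95%) against 2.97% of all genes, and the C/EBP-ATF-type motif TGATGNAA for 0 of 76 against 4.51%. The last 3 letters of the GABP-type motif are the first 3 of the YY1-type motif, so matches to both can overlap. A match is a description of the sequence and not a bound site.

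The 3 upstream sequences shown were chosen after the values were seen. With TGFb, Cycs rose (log2 fold change 0.41), while Uqcrh (-0.55) and Ndufv3 (-0.61) both fell. With SR9011 alone, Uqcrh (-0.93) and Ndufv3 (-0.87) again fell together. Each is the 150 bases that end at the base before the RefSeq start site, on the gene's own strand, with motif matches in capitals. Cycs (chr6:50566570-50566719, minus strand) has an NRF1-type match. Uqcrh (chr4:116075071-116075220, minus strand) has a GABP-type match close to the start. Ndufv3 (chr17:31519965-31520114, plus strand) has none of the motifs in these bases.
Cycs: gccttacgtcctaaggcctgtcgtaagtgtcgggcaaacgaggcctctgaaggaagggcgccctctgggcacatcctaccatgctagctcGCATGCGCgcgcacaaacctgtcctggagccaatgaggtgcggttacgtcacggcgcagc
Uqcrh: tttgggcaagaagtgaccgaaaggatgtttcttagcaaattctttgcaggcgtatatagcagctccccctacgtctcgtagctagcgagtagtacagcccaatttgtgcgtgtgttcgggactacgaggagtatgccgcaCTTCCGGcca
Ndufv3: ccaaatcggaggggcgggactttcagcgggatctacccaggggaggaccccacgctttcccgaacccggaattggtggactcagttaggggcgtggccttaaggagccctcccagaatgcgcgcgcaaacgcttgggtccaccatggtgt

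Identity was checked with 9 marker genes of stellate cells and fibroblasts, of which 8 were in the table and Lrat was not found. Vim, Col1a1, Col1a2, Acta2, Pdgfrb and Lum reached 1 FPKM in at least 3 libraries, while Reln was at 0 in all and Des was near 0. These markers therefore do not separate stellate cells from other fibroblasts. Hepatocyte markers summed to at most 0.22 FPKM in any library and endothelial markers to at most 0.47 FPKM. Of 4 cholangiocyte markers, 3 reached 1 FPKM in at least 3 libraries. The sum of the 4 was 9.33 to 9.98 FPKM in SB431542+TGFb, 2.51 to 3.12 in SR9011+TGFb, 3.73 to 5.39 in CLK8+TGFb, 7.2 to 8.43 in TGFb, 8.92 to 11.4 in SB431542, 4.04 to 4.67 in SR9011, 4.43 to 5.13 in CLK8 and 8.08 to 10.5 in vehicle. These markers did not move as a set. Krt7 averaged 6.65 FPKM in vehicle, 1.14 in SR9011 and 1.95 in CLK8, and Krt19 2.14, 0.647 and 0.79. Sox9 went the other way, at 0.533, 2.46 and 1.87 FPKM, and Epcam was at most 0.27 FPKM in any library. Macrophage markers, 1 of 3 reaching 1 FPKM, summed to 2.47 to 3.15 FPKM in CLK8, 1.19 to 2 FPKM in vehicle and 1.05 to 2.58 FPKM in the other groups. Summed FPKM ranged between 503920 and 610024 per library, and relative depth, read from the smallest steps of 19 genes, ranged between 0.92 and 1.06. The FPKM sum differed by group, at 522138 to 528289 in TGFb, 503920 to 521239 in CLK8+TGFb and 543014 to 559906 in vehicle. It was 548928 to 610024 in SR9011 and 535077 to 565731 in the other groups. The SR9011 libraries deviated most from their group mean. Summed stellate and fibroblast markers, led by collagen I RNA, were 3363 to 3603 FPKM in SB431542+TGFb, 2600 to 2745 in SR9011+TGFb, 4530 to 5156 in CLK8+TGFb, 5069 to 5699 in TGFb, 2925 to 3060 in SB431542, 1329 to 1510 in SR9011, 2860 to 2931 in CLK8 and 3674 to 3851 in vehicle. These marker sums thus moved with the treatments, and their part in the results that follow was not tested.

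Respiratory chain RNA was abundant in every group. The 93 genes held 3.15% ± 0.0161 of summed FPKM in SB431542+TGFb, 2.73% ± 0.00642 in SR9011+TGFb, 2.87% ± 0.0725 in CLK8+TGFb, 2.82% ± 0.0149 in TGFb, 3.26% ± 0.0549 in SB431542, 2.72% ± 0.0978 in SR9011, 3.32% ± 0.107 in CLK8 and 3.12% ± 0.0461 in vehicle (SD, n = 3 each). All libraries of the TGFb, SR9011, SR9011+TGFb and CLK8+TGFb groups lay below all vehicle libraries. In bulk RNA, fewer cells expressing a gene and less of its RNA per cell cannot be told apart. In vehicle cells the median level was 356 FPKM over the complex IV genes tested, 303 FPKM for ATP synthase, 113 FPKM for complex I, 95.7 FPKM for complex III and 88.4 FPKM for complex II. Assembly factors of complex I were far lower, with a median of 12.6 FPKM. The genes highest on average over all libraries were Atp5b, Cox4i1 and Cox8a, the last at 691 FPKM in vehicle. Cox7b2, Cox6b2 and Cox4i2, whose products are testis or lung isoforms, were lowest, with at most 1 library of any group above 0.

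**Figure D1:**
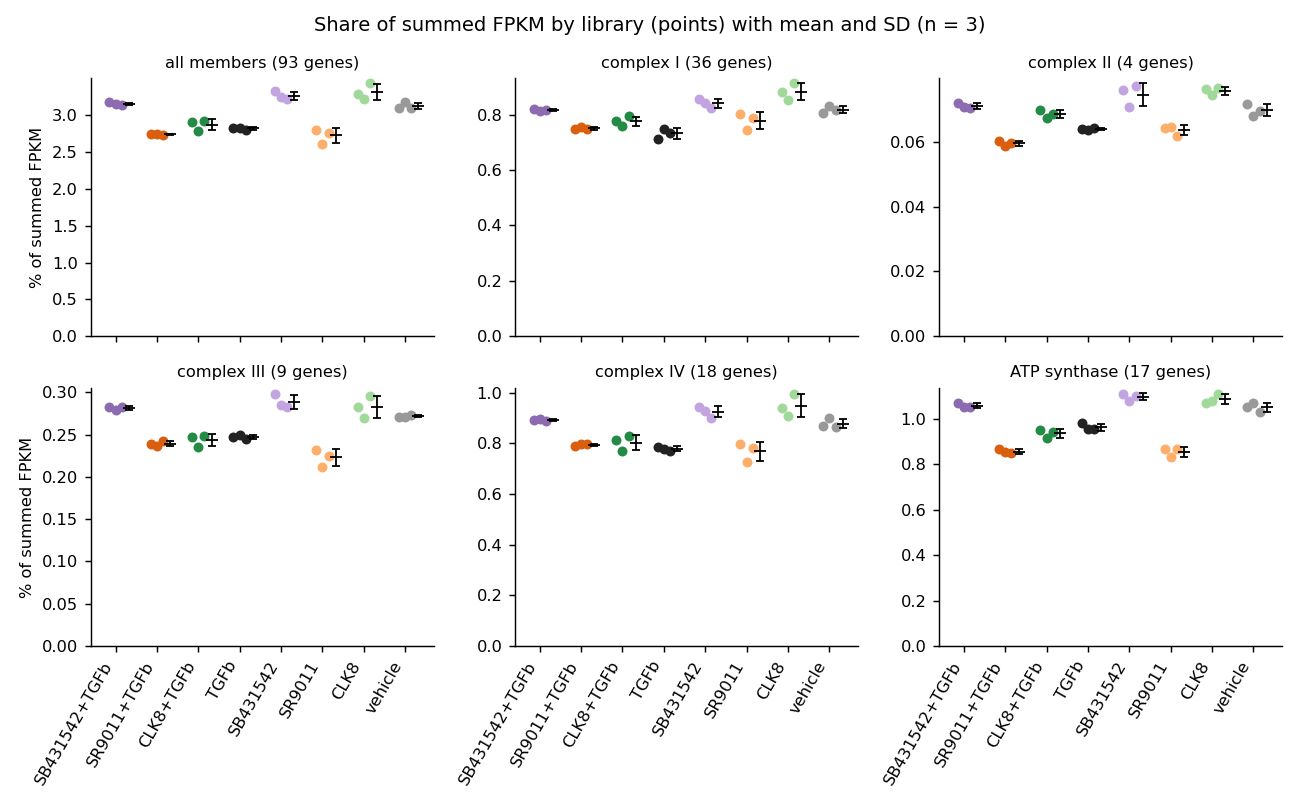
Percent of summed FPKM held by all 93 genes and by 5 of the complexes, with a point for each library and the mean ± SD (n = 3) beside it, for the 8 groups. The share of all 93 genes was 2.82% in TGFb, 2.72% in SR9011 and 3.12% in vehicle.

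Of the 93 genes, 89 reached 1 FPKM in at least 3 libraries and were tested with limma on log2(FPKM + 1), together with all 11297 genes that passed this filter. Cox4i2, Cox6b2, Cox7b2 and Ndufa4l2 did not pass. A gene was called at a Benjamini-Hochberg adjusted p below 0.05 over all genes tested, and log2 fold changes are on the log2(FPKM + 1) scale. Members named for the largest rises and falls in a direct comparison were picked partly because their groups did not overlap. Their separation is thus a description and not added support. With TGFb, 6 of the 89 were called higher and 50 lower than with vehicle. Over all genes tested, 20.5% were called higher and 34.4% lower. The median log2 fold change was -0.17 over the 89 genes and -0.05 over all genes. When FPKM were rescaled to TPM, 12 were called higher and 35 lower, and with quantile normalization 10 higher and 35 lower.

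Genes called lower with TGFb were found in each of the complexes. Complex I had 20 of 36 subunits called lower and 0 higher by limma, or 12 lower and 1 higher on the TPM scale and 13 lower and 1 higher with quantile normalization. Among these were 3 of the 7 nuclear core subunits and 17 of the 29 supernumerary ones. For the core subunits the TPM scale gave 1 higher and 0 lower, so their direction depended on the scale. This split of complex I was chosen after the values were seen. Ndufa6, a supernumerary subunit that anchors the acyl carrier protein, had 134, 144 and 139 FPKM with TGFb and 192, 224 and 203 FPKM with vehicle. The groups did not overlap, and the log2 fold change was -0.56 (SE 0.0765, limma adjusted p = 1.48e-06). Ndufv3, an accessory subunit of the NADH-oxidising module, had 106, 135 and 123 FPKM with TGFb and 168, 199.7 and 188 FPKM with vehicle. All TGFb libraries lay below the vehicle libraries, with a log2 fold change of -0.61 (SE 0.108, limma adjusted p = 5.78e-05). Ndufa2 (-0.44), Ndufa3 (-0.38), Ndufb11 (-0.36) and Ndufs6 (-0.33) also fell. Ndufs1, the largest core subunit with iron-sulphur clusters, was at 42.2 ± 1.37 FPKM with TGFb and 39.8 ± 2.13 FPKM with vehicle (SD, n = 3 each) and was not called (log2 fold change 0.08).

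The complex I assembly factors, which build the enzyme but are absent from the finished complex, split into 2 called higher and 2 lower of 8, or 3 and 1 on the TPM scale. Ndufaf4, which acts on the ubiquinone-binding part, had 6.17, 5.34 and 6.16 FPKM with TGFb and 4.04, 3.20 and 3.27 FPKM with vehicle. Every TGFb library was above every vehicle library (log2 fold change 0.62, SE 0.0975, limma adjusted p = 1.21e-05), and Ndufaf7 rose by 0.16 log2. Ndufaf8 had 38.6, 44.6 and 42.0 FPKM with TGFb and 55.6, 61.1 and 54.6 FPKM with vehicle. It fell, with a log2 fold change of -0.44 (limma adjusted p = 1.01e-05), and Ndufaf3 fell by 0.20 log2.

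In complex II the membrane anchors and the catalytic pair parted. Sdhc had 96.9, 96.5 and 94.95 FPKM with TGFb and 131, 126 and 127 FPKM with vehicle (log2 fold change -0.41, SE 0.0416, limma adjusted p = 1.75e-08). Sdhd, its partner anchor, had a log2 fold change of -0.28, and neither anchor's libraries overlapped those of vehicle. Sdha, the flavoprotein that oxidises succinate, and Sdhb, the iron-sulphur subunit, were not called, with log2 fold changes of -0.07 and 0.02.

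Complex III and cytochrome c held 3 of the 6 rises. In complex III, 2 genes were called higher and 4 lower, or 3 and 3 on the TPM scale and 2 and 2 with quantile normalization. Cycs, the soluble carrier of electrons to complex IV, had 44.7, 40.8 and 41.8 FPKM with TGFb and 33.2, 32.3 and 29.6 FPKM with vehicle. No TGFb library overlapped vehicle, and the log2 fold change was 0.41 (SE 0.0611, limma adjusted p = 5.64e-06). Cyc1, which hands electrons to cytochrome c, had 110.1, 111 and 111 FPKM with TGFb and 98.3, 93.5 and 95.3 FPKM with vehicle, a log2 fold change of 0.21 (limma adjusted p = 0.0106). Uqcrq, a small subunit next to cytochrome b, rose by 0.31 log2. Uqcrh, the hinge protein between cytochrome c1 and cytochrome c, went the other way, with 152, 136 and 135 FPKM with TGFb and 192, 219 and 208 FPKM with vehicle. Its log2 fold change was -0.55 (SE 0.0595, limma adjusted p = 5.59e-08), and Uqcr11 (-0.46) and Uqcr10 (-0.23) fell with it. Uqcrfs1, the iron-sulphur protein, was called lower (-0.11), but not on the TPM scale (-0.04), with quantile normalization (-0.06), without TGFb replicate 2 (-0.11) or without vehicle replicate 1 (-0.10). The core proteins Uqcrc1 (-0.05) and Uqcrc2 (0.05) were not called.

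In complex IV, 9 of 14 subunits were called lower and 1 higher. Cox4i1, the largest nuclear subunit and a site of regulation by ATP, had 548, 555 and 556 FPKM with TGFb and 669, 673 and 652 FPKM with vehicle (log2 fold change -0.26, limma adjusted p = 0.000511). Cox7a2l, known for linking complex III to complex IV in a supercomplex, had 152, 161 and 153 FPKM with TGFb and 207, 225 and 228 FPKM with vehicle. Its log2 fold change was -0.50 (SE 0.0593, limma adjusted p = 2.2e-07), and the groups stood well apart. Whether its product has that role in these cells was not measured. Cox5a, the partner of Cox4i1, was the subunit called higher, at 0.21 log2, and the call was lost without vehicle replicate 3 (0.17) or TGFb replicate 1 (0.18).

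In the ATP synthase, 13 of 17 genes were called lower and 0 higher by limma. The largest falls were in Atp5e (-0.38), the small epsilon subunit of the rotor, and in Atp5k (-0.33), Atp5mpl (-0.33) and Atp5g2 (-0.33). The catalytic beta subunit Atp5b had 621, 615 and 653 FPKM with TGFb and 629, 580.1 and 586 FPKM with vehicle. Those libraries overlapped, and neither Atp5b (log2 fold change 0.07) nor the alpha subunit Atp5a1 (0.06) was called. Atpif1, the inhibitor that stops the synthase from running backwards and is not caught by the naming rule, fell by 0.31 log2 (limma adjusted p = 0.0121). The TPM scale gave 3 ATP synthase genes higher and 10 lower.

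These members are short, and short genes as a class moved the same way. The coding length of the 89 genes had a median of 438 nt, against 1392 nt for all genes tested. Among genes under 450 nt, the median log2 fold change with TGFb was -0.26 over 47 members and -0.16 over 749 genes, of which 44.3% were called lower. From 450 to under 900 nt it was -0.14 over 26 members and -0.08 over all genes of that length. From 900 to under 1800 nt it was 0.04 over 14 members and -0.04 over all. These length classes were chosen after the values were seen, and the part of length, or of anything that moves with length, in the members' change was not tested. Exon sequence of 22 members also overlaps that of another measured gene, and whether reads were counted by strand is not given, so for genes such as Atp5a1 (Haus1), Ndufs1 (Eef1b2) and Cox4i1 (Emc8) the reads of both genes may be mixed.

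**Figure D2:**
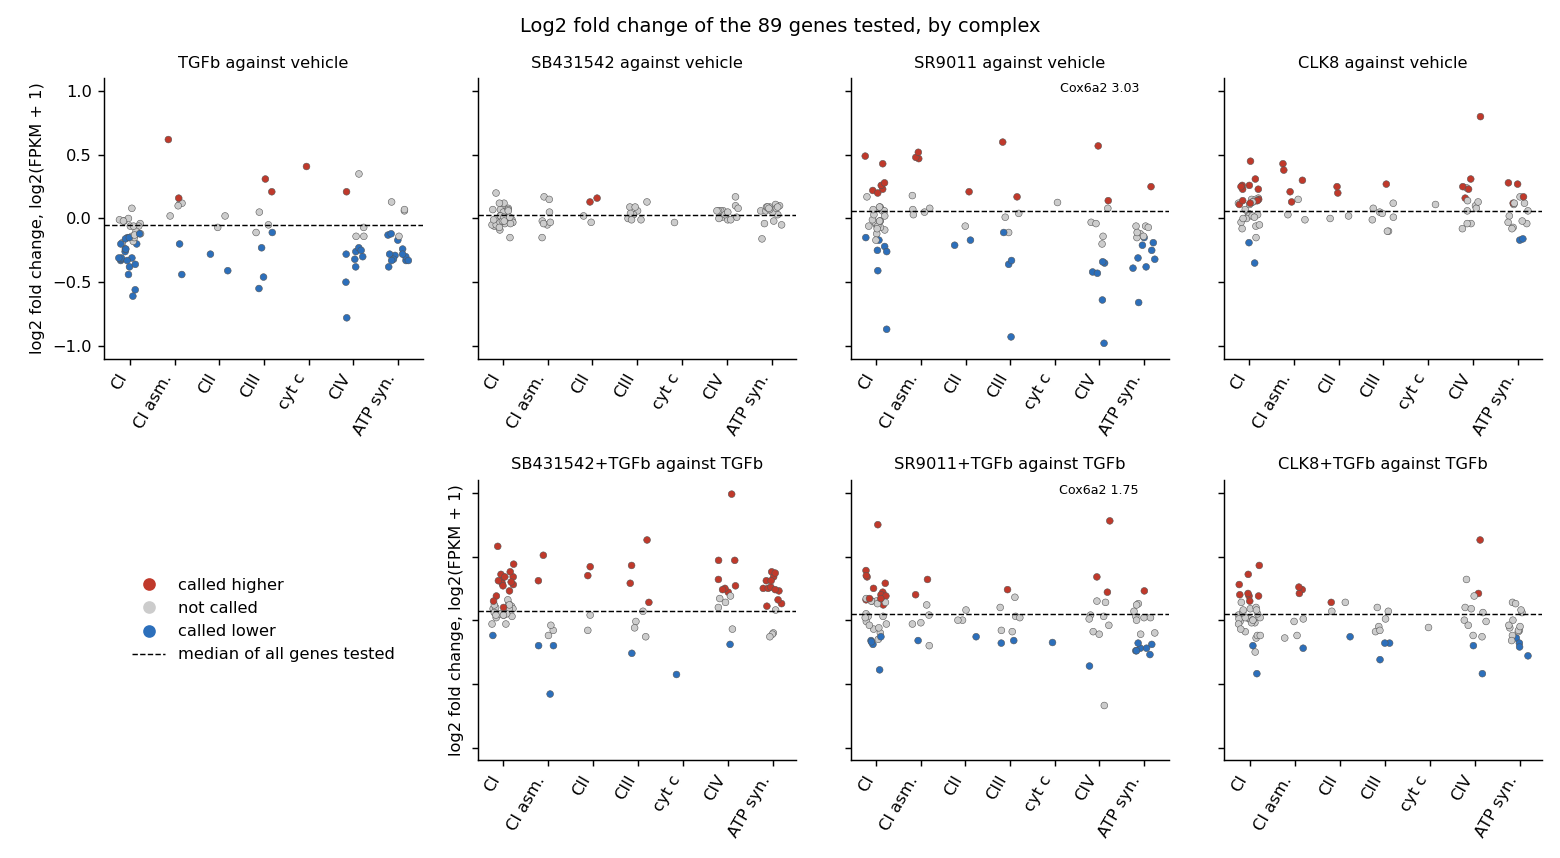
Log2 fold change of the 89 genes tested, on log2(FPKM + 1), in 7 comparisons, with a point for each gene placed by complex (CI to CIV, asm. for assembly factors). Colours mark calls by limma, and the dashed line is the median of all 11297 genes. With TGFb, 50 genes lie among those called lower, and Cox6a2 is written in where it exceeds the axis.

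SB431542 without TGFb left nearly all members near vehicle. Sdhd (log2 fold change 0.16) and Sdhc (0.13) were called higher, 2 of 89 against 11.9% of all genes, and 0 of 89 were called lower by limma, against 5.05% of all genes. At an unadjusted p under 0.05 limma gave 6 higher and 2 lower. On the TPM scale there were 5 higher and 0 lower, and after quantile normalization 3 and 1. A single gene was higher without vehicle replicate 1, vehicle replicate 3 or SB431542 replicate 3, and 1 was lower without SB431542 replicate 1. Sdhc had 144, 137 and 141 FPKM with SB431542 and 131, 126 and 127 FPKM with vehicle, and these libraries did not overlap. The Sdhc call was lost without vehicle replicate 2 (0.12), vehicle replicate 3 (0.13), SB431542 replicate 1 (0.12) or SB431542 replicate 3 (0.13), and the Sdhd call without vehicle replicate 1 (0.15).

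With TGFb present, more members were called higher with SB431542 than lower. In SB431542+TGFb, 45 members were called higher and 7 lower than in TGFb, against 38.3% and 21.4% of all genes. The median log2 fold change was 0.14 over the members and 0.07 over all genes. The TPM scale had 39 higher and 12 lower, quantile-normalized values 37 and 13. Under 450 nt the median was 0.25 over 47 members and 0.15 over all genes of that length, of which 44.5% were called higher. From 900 to under 1800 nt it was -0.05 over 14 members and 0.06 over all, and the part of length was not tested. Without TGFb replicate 1 the count of lower calls was 4. This comparison shares its TGFb libraries with the comparison of TGFb and vehicle, so opposite signs in both are partly built in. Uqcrh had 214, 221 and 219 FPKM in SB431542+TGFb and 152, 136 and 135 FPKM in TGFb (log2 fold change 0.63, SE 0.0595, limma adjusted p = 4.59e-09). Ndufa6 had 186, 209 and 233 FPKM in SB431542+TGFb and 134, 144 and 139 FPKM in TGFb (log2 fold change 0.58, limma adjusted p = 7.23e-07). Neither gene's groups overlapped. By complex, 13 of 17 ATP synthase genes, 16 of 36 in complex I, 8 of 14 in complex IV, 4 of 9 in complex III and 2 of 4 in complex II were called higher. In the ATP synthase 0 were lower by limma, and on the TPM scale 11 were higher and 3 lower. Ndufaf8 rose by 0.51 log2, and Atpif1 by 0.27 log2.

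The falls in SB431542+TGFb took in Cycs, Cox5a, Uqcrq, Ndufs1 and 3 assembly factors. Cycs had 34.1, 31.1 and 28.9 FPKM in SB431542+TGFb and 44.7, 40.8 and 41.8 FPKM in TGFb, with no overlap (log2 fold change -0.42, SE 0.0611, limma adjusted p = 2.68e-06). Ndufaf4 had 3.88, 3.56 and 3.36 FPKM in SB431542+TGFb and 6.17, 5.34 and 6.16 FPKM in TGFb, a log2 fold change of -0.58 (limma adjusted p = 2.05e-05). Uqcrq (-0.26) and Ndufaf2 (-0.20) were among the called falls, but Uqcrq lost its call without SB431542+TGFb replicate 3 (-0.21). Ndufaf2 lost its own without any 1 of the TGFb libraries (-0.21, -0.21 and -0.19), or without SB431542+TGFb replicate 2 (-0.18) or 3 (-0.15). Cox5a (-0.19) lost its call without SB431542+TGFb replicate 2 (-0.15) or TGFb replicate 1 (-0.16), and Ndufs1 (-0.12) without TGFb replicate 1 (-0.10).

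The interaction asks whether the effect of SB431542 differed with and without TGFb. The interactions of all compounds use the same TGFb and vehicle libraries. A change with TGFb alone thus enters each with the opposite sign, and the interactions are not independent of one another. The SB431542 interaction was called higher for 19 members and lower for 3, against 21.5% and 12.8% of all genes. TPM gave 16 higher and 6 lower, and a fit of the 4 groups alone gave 30 higher and 3 lower. Higher calls numbered 12 without vehicle replicate 2 and 11 without SB431542 replicate 3, and lower calls 5 without vehicle replicate 1. Among the called members, Ndufv3 (0.59), Uqcrh (0.50), Ndufaf8 (0.45) and Cox7a2l (0.39) had the largest positive values. Ndufaf4 (-0.56), Cycs (-0.39) and Cox5a (-0.26) were the members called lower. Cox7a1 had a larger positive value than any of these but was not called, and other members with negative values were not called either.

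**Figure D3:**
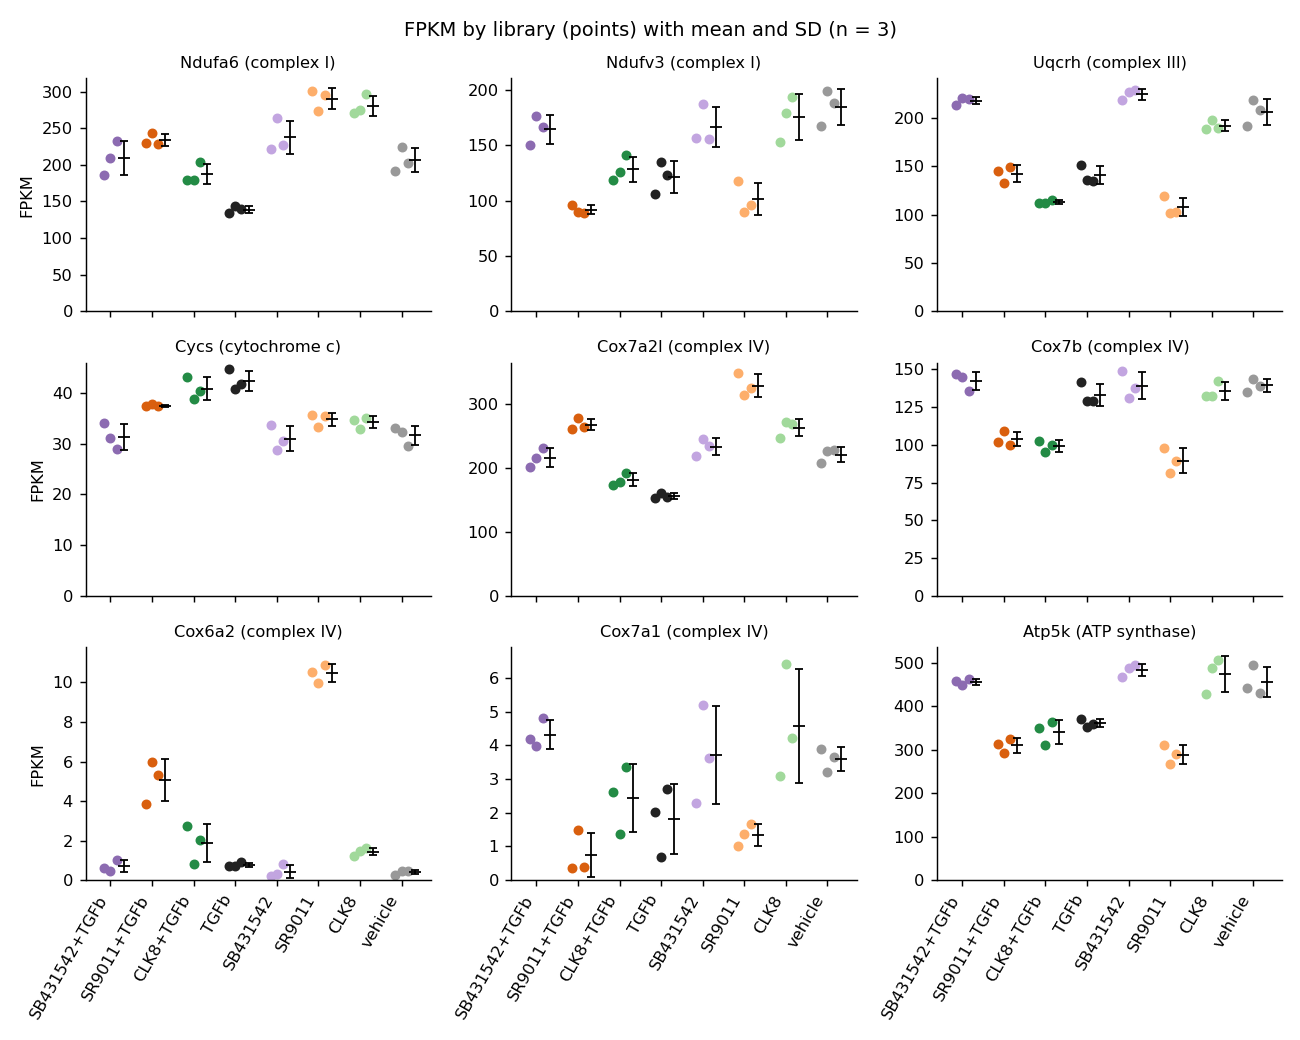
FPKM of 9 genes in every library, with a point for each library and the mean ± SD (n = 3), for the 8 groups. Uqcrh is at 102 to 119 FPKM in SR9011 and 192 to 219 FPKM in vehicle, whereas Cox6a2 is at 9.97 to 10.9 FPKM in SR9011 and below 1 FPKM in vehicle.

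SR9011 moved members both ways. Against vehicle, 17 were called higher and 28 lower, while 40.7% of all genes were called higher and 28.3% lower. The median log2 fold change was -0.06 over the members and 0.06 over all genes. On the TPM scale 14 were higher and 44 lower, and with quantile normalization 21 higher and 27 lower. The calls split complex IV, complex III and complex I internally, and in complex I, with 7 higher and 7 lower, rescaling to TPM turned this to 6 and 13, and quantile values to 9 and 7. In the ATP synthase 9 of 17 genes were lower and 1, Atp5s, higher, and on the TPM scale 15 were lower and 1 higher. Atp5s, placed there by name, was the lowest of these genes in vehicle, at 4.54 FPKM against a median of 303 FPKM. Under 450 nt the median was -0.14 over 47 members and -0.07 over all genes of that length, and the part of length was not tested.

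Uqcrh fell further with SR9011 than any other member of complex III. It had 119, 102 and 102 FPKM with SR9011 and 192, 219 and 208 FPKM with vehicle, a log2 fold change of -0.93 (SE 0.0595, limma adjusted p = 3.01e-12). Uqcrq was on the other side, with 82.6, 67.2 and 79.1 FPKM with SR9011 and 52.3, 50.4 and 46.9 FPKM with vehicle (log2 fold change 0.60, SE 0.0834, limma adjusted p = 1.16e-06). Neither gene's libraries overlapped between the groups. Cyc1 was called higher (0.17), but not without SR9011 replicate 1 (0.10) or 3 (0.17), vehicle replicate 2 (0.15) or 3 (0.17), or on the TPM scale (0.09).

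In complex I, Ndufv3 had 118, 90 and 96.1 FPKM with SR9011 and 168, 199.7 and 188 FPKM with vehicle (log2 fold change -0.87, SE 0.108, limma adjusted p = 2.9e-07). Ndufa6 rose, with 301, 274 and 296 FPKM with SR9011 and 192, 224 and 203 FPKM with vehicle (log2 fold change 0.49, limma adjusted p = 5.19e-06). Both sets of libraries stood apart. Ndufb9, a small subunit of the membrane arm, rose by 0.43 log2, and the core subunit Ndufv1, which binds NADH, by 0.28 log2. The assembly factors Ndufaf6 (0.52), Ndufaf5 (0.48) and Ndufaf4 (0.47) rose, and 0 of 8 fell by limma. Ndufaf5, an enzyme that modifies a core subunit during assembly, had 14.7, 12.8 and 14.4 FPKM with SR9011 and 10.3, 9.93 and 9.05 FPKM with vehicle.

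Members of complex IV also moved apart with SR9011. Cox7a2l rose, with 348, 313 and 324 FPKM with SR9011 and 207, 225 and 228 FPKM with vehicle (log2 fold change 0.57, SE 0.0593, limma adjusted p = 1.14e-08). Cox7b, a small subunit encoded on chromosome X, fell to 97.8, 81.5 and 89.2 FPKM with SR9011, against 135, 144 and 139 FPKM with vehicle (log2 fold change -0.64, SE 0.0602, limma adjusted p = 2.6e-09). Ndufa4, once assigned to complex I and now known as a complex IV subunit, fell by 0.34 log2. Its relative Ndufa4l2, known as a gene induced by hypoxia, was not tested and stayed between 0.21 and 0.72 FPKM in all libraries. Atp5k, subunit e of the ATP synthase and part of its dimer interface, had 311, 266 and 289.6 FPKM with SR9011 and 443, 496 and 429.7 FPKM with vehicle (log2 fold change -0.66, SE 0.0695, limma adjusted p = 1.63e-08).

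The muscle isoforms of complex IV are Cox6a2, Cox7a1 and Cox8b, of which the first and second were measured. Cox6a2 lies on chromosome 7 of GRCm38 at chr7:128205435-128206387. It had 10.6, 9.97 and 10.9 FPKM with SR9011 and 0.27, 0.47 and 0.47 FPKM with vehicle. It was below 1 FPKM in every vehicle and TGFb library and passed the filter on low values through the groups where it was high, so its fold changes are given as a description with no test, although the counts of calls include it. The log2 fold change with SR9011 was 3.03, which understates the change because of the pseudocount of 1. It was also higher in SR9011+TGFb, with 3.87, 5.95 and 5.34 FPKM, against 0.73, 0.72 and 0.89 FPKM in TGFb (log2 fold change 1.75). In CLK8 it had 1.24, 1.45 and 1.64 FPKM, a log2 fold change of 0.80 against vehicle. None of these groups overlapped their controls. In CLK8+TGFb it had 2.74, 0.82 and 2.05 FPKM, 0.63 log2 above TGFb, with overlapping groups, and the difference was 0.41 without CLK8+TGFb replicate 1 and 0.55 without replicate 3.

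Even so, Cox6a2 remained a minor form. Its share of the summed FPKM of Cox6a2 and its ubiquitous partner Cox6a1 was 0.923% ± 0.21 in SR9011+TGFb, 0.147% ± 0.0119 in TGFb, 1.9% ± 0.222 in SR9011 and 0.065% ± 0.0188 in vehicle (SD, n = 3 each). Of 7 muscle markers in the table, Tnnt2 was the one that reached 1 FPKM in 3 libraries. Their sum was 11 to 13.2 FPKM in SR9011+TGFb, 2.04 to 3.15 FPKM in CLK8+TGFb and 3.23 to 3.75 FPKM in TGFb. Without TGFb it was 0.13 to 0.37 FPKM in SR9011, 0.92 to 1.69 FPKM in CLK8 and 0.65 to 0.9 FPKM in vehicle. The muscle sum was thus higher along with Cox6a2 in SR9011+TGFb and CLK8, and lower in SR9011 and CLK8+TGFb, where the mean of Cox6a2 was higher. Its part in the Cox6a2 values was not tested.

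Cox7a1 was low and scattered. It had 2.03, 0.69 and 2.72 FPKM with TGFb, 1.02, 1.36 and 1.66 FPKM with SR9011, and 3.90, 3.22 and 3.67 FPKM with vehicle. It was called lower with TGFb (log2 fold change -0.78, limma adjusted p = 0.0386) and with SR9011 (-0.98, limma adjusted p = 0.00869). In SB431542+TGFb it had 4.19, 3.97 and 4.81 FPKM, 0.99 log2 above TGFb (limma adjusted p = 0.0095). Without TGFb replicate 2 the difference was -0.45 for TGFb against vehicle and 0.66 for SB431542+TGFb against TGFb, and both calls were lost. The call for TGFb against vehicle was also lost without any 1 of the vehicle libraries (-0.73, -0.84 and -0.77), on the TPM scale (-0.87), with quantile normalization (-0.71), with a pseudocount of 0.1 (-1.13) and in a fit of the 2 groups alone (-0.78).

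With TGFb present, SR9011 gave a mixed pattern that depended on the scale. In SR9011+TGFb, 22 members were called higher and 18 lower than in TGFb, against 36.8% and 24% of all genes. The medians were 0.03 over the members and 0.05 over all genes. TPM gave 10 higher and 30 lower. Without SR9011+TGFb replicate 2, 14 were higher. Complex I had 14 subunits higher and 5 lower, but 6 higher and 8 lower on the TPM scale, and complex IV had 4 higher and 1 lower, but 3 higher and 5 lower on the TPM scale. Quantile normalization gave 15 higher and 5 lower for complex I, and 6 higher and 1 lower for complex IV. The ATP synthase had 1 higher and 7 lower. Ndufa6 had 230.1, 244 and 228 FPKM in SR9011+TGFb and 134, 144 and 139 FPKM in TGFb (log2 fold change 0.75, SE 0.0765, limma adjusted p = 1.49e-08). Cox7a2l had 260.3, 277 and 264 FPKM in SR9011+TGFb and 152, 161 and 153 FPKM in TGFb (log2 fold change 0.78, SE 0.0593, limma adjusted p = 1.08e-10). For both genes the groups were well separated. Atp5b fell, with 517, 519 and 529 FPKM in SR9011+TGFb and 621, 615 and 653 FPKM in TGFb (log2 fold change -0.27, limma adjusted p = 0.000258). Ndufv3 (-0.39), Cox7b (-0.36) and Atp5g1 (-0.24), which encodes a ring subunit of the rotor, fell too, and Ndufb9 (0.39) rose.

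The interaction of SR9011 with TGFb was called higher for 22 members and lower for 11, against 16.6% and 15.3% of all genes. With TPM these were 30 and 13, with quantile-normalized values 19 and 15. The counts leaned on single SR9011 and vehicle libraries, with 37 higher and 7 lower without SR9011 replicate 1, 13 higher without SR9011 replicate 2 and 14 higher without vehicle replicate 2. The count of lower calls was also 7 without vehicle replicate 3 and without SR9011+TGFb replicate 1. Under 450 nt, 18 of 47 members were called higher and 3 lower, against 27.9% and 6.81% of all genes of that length. From 900 to under 1800 nt, 1 of 14 members was higher and 6 lower, against 15% and 18%. The part of length was not tested. Uqcrh had the largest positive value, at 0.95 (SE 0.0842, limma adjusted p = 2.65e-08). SR9011 set it at 146, 133 and 149 FPKM with TGFb, beside 152, 136 and 135 FPKM for TGFb alone, where the groups overlapped and limma made no call (log2 fold change 0.02). Ndufb3 (0.47) and Ndufa2 (0.46) were also positive. Ndufaf4 (-0.67), Ndufaf5 (-0.44) and Ndufaf6 (-0.39) were negative, as was Cox6a2 (-1.28, a description).

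**Figure D4:**
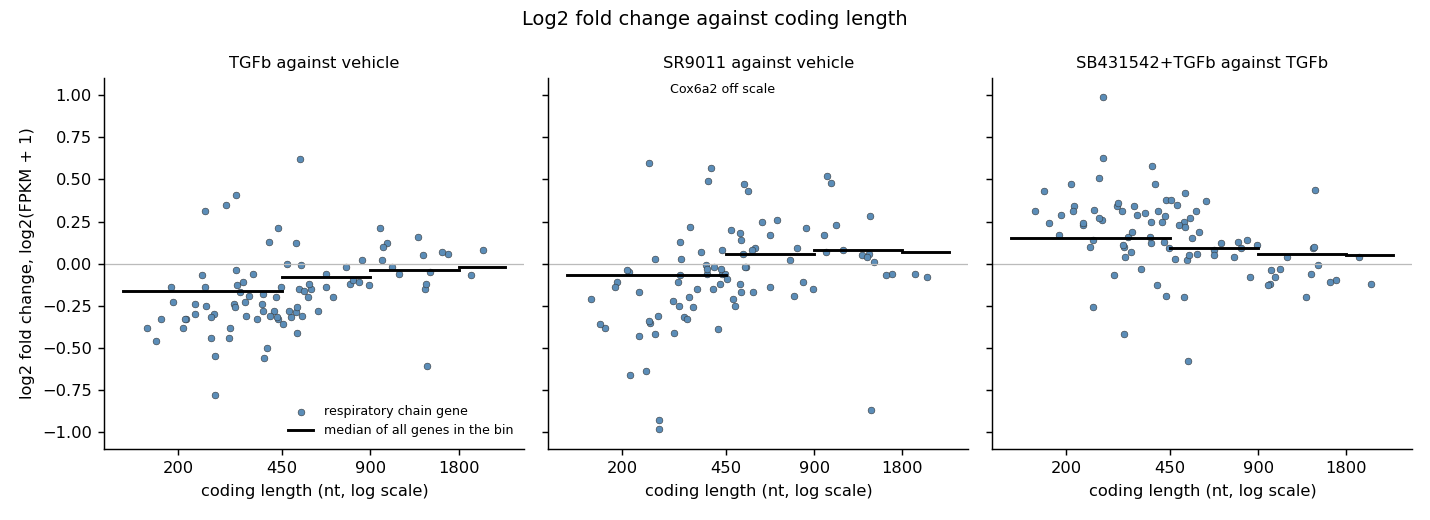
Log2 fold change of the 89 genes tested against coding length in nt (log scale) in 3 comparisons, with black bars for the median of all genes in each length class. For TGFb against vehicle the bar lies at -0.16 under 450 nt and at -0.02 from 1800 nt, and Cox6a2 (3.03) is off the scale for SR9011 against vehicle.

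With CLK8 and no TGFb, 30 members were called higher and 4 lower than with vehicle, and the other 55 were not called. Over all genes, 30.3% were called higher, a share near that of the members, and 13.6% lower. The median log2 fold change was 0.11 over the members and 0.06 over all genes. The count of higher calls was 18 without vehicle replicate 3, CLK8 replicate 1 or CLK8 replicate 3. Complex I had 13 subunits higher and 2 lower, and its assembly factors 5 of 8 higher, or 3 with quantile normalization. Ndufa6 had 271, 275 and 297 FPKM with CLK8 and 192, 224 and 203 FPKM with vehicle (log2 fold change 0.45, SE 0.0765, limma adjusted p = 5.53e-05). Ndufaf2, which acts late in assembly, had 55.0, 48.8 and 57.5 FPKM with CLK8 and 39.7, 40.5 and 38.3 FPKM with vehicle (log2 fold change 0.43, limma adjusted p = 0.000209). In both cases the groups did not overlap. Ndufaf6 rose by 0.38 log2. In complex II the catalytic subunits Sdhb (0.25) and Sdha (0.20) rose, while the anchors were not called.

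Ndufc2, a membrane arm subunit, was the largest fall with CLK8. It had 141, 129 and 138 FPKM with CLK8 and 175, 175 and 171 FPKM with vehicle (log2 fold change -0.35, SE 0.0576, limma adjusted p = 3.26e-05). In CLK8+TGFb it had 121, 123 and 131 FPKM, against 154, 178 and 169.7 FPKM in TGFb (log2 fold change -0.42, limma adjusted p = 4.38e-06). It was thus lower with CLK8 in both settings, with no overlap in either. Ndufs4 (-0.19), Atp5a1 (-0.17) and Atp5g3 (-0.16) were the other falls with CLK8 alone. The Atp5a1 call was lost without vehicle replicate 1 (-0.13), and that of Atp5g3 without vehicle replicate 2 (-0.14), CLK8 replicate 1 (-0.15) or CLK8 replicate 2 (-0.15).

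With TGFb present, CLK8 gave nearly equal numbers in each direction. In CLK8+TGFb, 14 members were called higher and 13 lower than in TGFb, against 27.7% and 13.3% of all genes, with medians of 0.00 and 0.05. Higher calls fell to 9 without TGFb replicate 1 and to 8 without CLK8+TGFb replicate 1 or 3, and lower calls to 8 without TGFb replicate 2 or CLK8+TGFb replicate 2. Complex I had 8 higher and 2 lower, and the ATP synthase 0 higher and 4 lower by limma. Ndufa6 (0.43), Ndufs6 (0.36), Ndufa2 (0.28) and Ndufaf8 (0.26) rose. Cox7b had 102, 95.03 and 100.05 FPKM in CLK8+TGFb and 142, 129 and 129 FPKM in TGFb (log2 fold change -0.42, SE 0.0602, limma adjusted p = 6.85e-06). Uqcrh had 112, 112 and 115 FPKM in CLK8+TGFb and 152, 136 and 135 FPKM in TGFb (log2 fold change -0.31, SE 0.0595, limma adjusted p = 0.000212). Neither overlapped, and Atp5a1 fell by 0.28 log2.

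The interaction of CLK8 with TGFb was called for Cox7b alone (-0.38, limma adjusted p = 0.00563), so 0 members were higher and 1 lower, against 4.58% and 3.39% of all genes. At an unadjusted p under 0.05 limma gave 0 higher and 18 lower. The count of lower calls was 4 in a fit of the 4 groups alone, 4 without CLK8+TGFb replicate 1, 3 without CLK8 replicate 2, and 2 without vehicle replicate 1 or 2. Cox7b had 132, 132 and 142 FPKM with CLK8 alone and 135, 144 and 139 FPKM with vehicle, which overlapped.

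**Figure D5:**
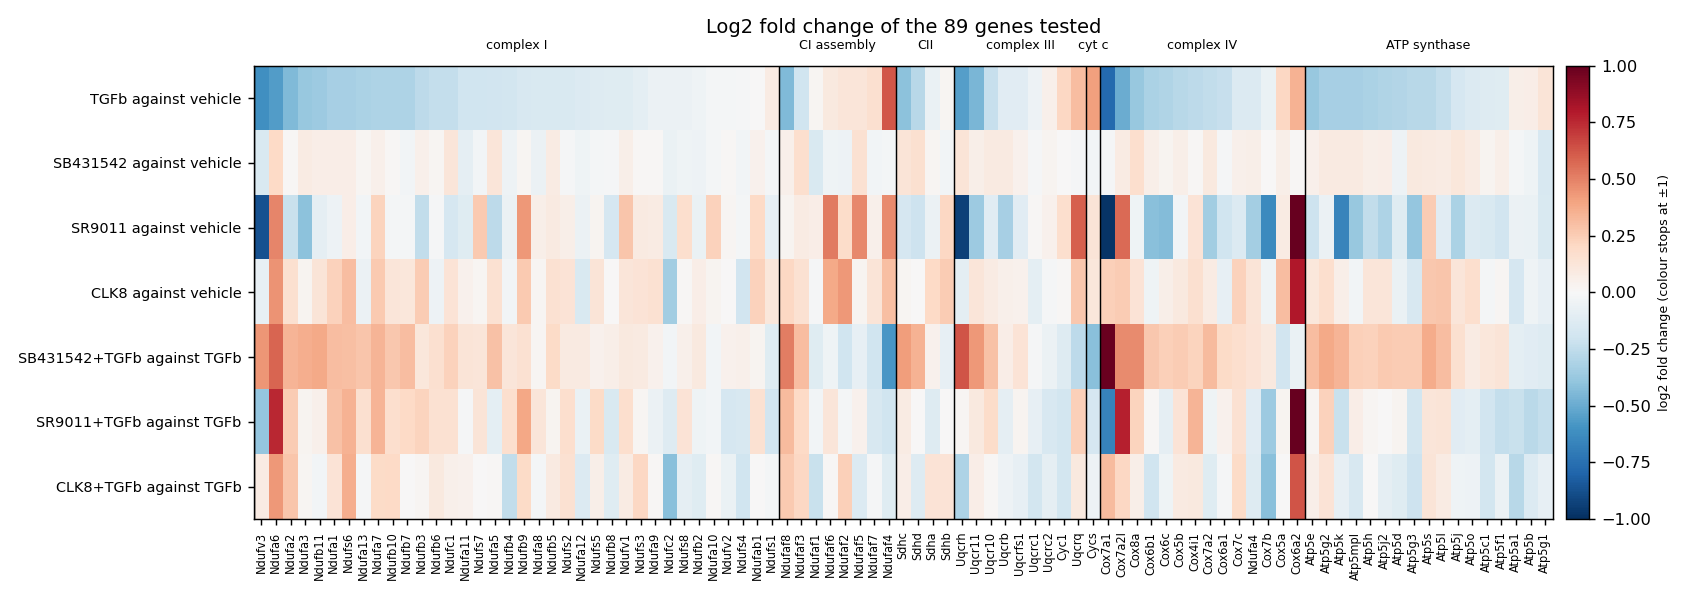
Log2 fold change of each of the 89 genes tested (columns, by complex and then by the change with TGFb) in 7 comparisons (rows), red for higher and blue for lower, with colours capped at a log2 fold change of 1 in either direction. In the TGFb row 50 genes were called lower, and in the SB431542+TGFb row 45 were called higher.

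Other genes of mitochondrial energy metabolism were taken from lists. With SR9011, 8 of 12 further complex I assembly factors were called higher and 3 lower, among them Tmem126a (0.81), Nubpl (0.77) and Ecsit (0.67). Of 26 complex IV assembly factors 12 were higher and 7 lower, with Surf1 at 0.58 and Cox20 at -1.17. Of 18 genes of the tricarboxylic acid cycle and pyruvate dehydrogenase 10 were higher and 1 lower, among them Pcx (0.96), which feeds the cycle with oxaloacetate. Of 14 mitochondrial chaperones and proteases 8 were higher and 2 lower, with the chaperone Hspa9 at 1.35 and the protease Lonp1 at 1.03. Of 16 other donors of electrons to ubiquinone and enzymes of its synthesis 9 were higher and 4 lower, with Sqor, which oxidises sulphide, at 1.47. Of 10 targets of the hypoxia factor HIF, 7 fell with SR9011 and 2 rose, with Car9 at -2.97 and Vegfa at 1.52. Lonp1 is in this list too and was the other rise, and Higd1a is in both this list and that of complex IV assembly factors. The counts of these lists thus share genes. The shares of all genes called with SR9011 were 40.7% higher and 28.3% lower.

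For TGFb the same lists are read against 20.5% of all genes called higher and 34.4% lower. Complex IV assembly factors had 3 higher and 10 lower of 26, among them Cmc2 (-0.54), whereas the further complex I assembly factors had 5 higher and 1 lower of 12. The tricarboxylic acid cycle list had 5 higher and 5 lower of 18, and the donors to ubiquinone 4 higher and 4 lower of 16, including Sqor (-0.87) and Coq8a (-0.78). Among 18 regulators of mitochondrial biogenesis 3 were higher and 3 lower with TGFb, with Pprc1 at 0.44. Of the same 18, 7 were higher and 4 lower with SR9011, against 40.7% and 28.3% of all genes. Lrpprc (0.92), which stabilises mitochondrial messenger RNA, was among those higher with SR9011. With CLK8, 11 of 26 complex IV assembly factors were higher and 1 lower, against 30.3% and 13.6% of all genes. The further complex I assembly factors had 6 higher and 0 lower of 12 by limma, and the chaperones and proteases 6 and 1 of 14. Donors to ubiquinone had 4 and 1 of 16. The tricarboxylic acid cycle list and the biogenesis regulators each had 3 higher and 3 lower of 18, and the HIF targets 1 higher and 7 lower of 10.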

How the data were processed

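The authors deposited 1 table of FPKM for 24 libraries, built on mm10 with HISAT2 2.0.4, Bowtie2 2.2.5 and RSEM per the submitters' processing notes, which also name DESeq2. RNA came from either of 2 kits, and which library had which is not given. Symbols, positions and coding lengths came from GENCODE M21 (GRCm38), where 16561 of 16604 identifiers had a symbol, and 16 lines on repeated identifiers were left out. Read totals are unknown. Genes at 1 FPKM or more in at least 3 libraries were fitted with limma 3.58.1 (R 4.3.3), trend and robust, on log2(FPKM + 1) with all 8 groups in 1 model. Each of 10 comparisons had 11297 2-sided tests, corrected by the Benjamini-Hochberg method at 0.05. The fit was tested on simulated data. The labels call the samples biological triplicates, and nothing further says how cultures were separated, so p-values measure only the spread between these samples. Named members are the 4 largest called rises and falls per comparison with groups that do not overlap (a condition not used for interactions), a fixed set of isoforms and core subunits, and the 3 highest and lowest by mean, and other members named were chosen after their values were seen. Listed genes named are the 3 called with the smallest adjusted p for SR9011 and for TGFb. Members, lists and classes were chosen with earlier results of these data known. Alternatives were a pseudocount of 0.1, no filter, FPKM of at least 5, TPM, quantile normalization, the compared groups alone, a replicate block and leaving out each library. Promoters came from RefSeq.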

Additional observations from a re-analysis of the deposited data

Results flagged for a closer look

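These interactions are set out because limma tested the difference between the effect of a compound with TGFb and without it and called it, and each is among the largest for its compound. All of them use the same TGFb and vehicle libraries, so a gene flagged for more than 1 compound is not a separate finding each time. For SB431542 the flagged interactions were Ndufv3 (0.59), Uqcrh (0.50), Ndufaf8 (0.45) and Cox7a2l (0.39), where the effect was more positive with TGFb. Ndufaf4 (-0.56), Cycs (-0.39) and Cox5a (-0.26) had a more negative effect with TGFb. The Cox5a value lost its call without any 1 of 8 of the 12 libraries compared (-0.27 to -0.21) or without the filter on low values (-0.26).

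For SR9011 they were Uqcrh (0.95), Ndufv3 (0.48), Ndufb3 (0.47) and Ndufa2 (0.46), with a more positive effect in the presence of TGFb. Cox6a2 (-1.28), Ndufaf4 (-0.67), Ndufaf5 (-0.44) and Ndufaf6 (-0.39) had a more negative effect with TGFb. Cox6a2 passed the filter on low values through the groups where it is high, so its value is a description. The Ndufv3 value lost its call without vehicle replicate 2 (0.42), TGFb replicate 1 (0.38), SR9011 replicate 2 (0.40) or SR9011+TGFb replicate 1 (0.44). For CLK8, Cox7b (-0.38) was the called member.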

How the results depend on the processing

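A pseudocount of 0.1, no filter and a filter of 5 FPKM kept every count of calls within 1.5 times its value. The other scalings did not. TPM moved the higher count to 12 for TGFb, 5 for SB431542 and 10 for SR9011+TGFb, and the lower count to 44 for SR9011, 12 for SB431542+TGFb, 30 for SR9011+TGFb and 6 for the SB431542 interaction. Quantile normalization gave 10 higher for TGFb, 1 lower for SB431542, 13 lower for SB431542+TGFb and 2 lower for the CLK8 interaction, and put Cox8a with SR9011 at 0.20, against -0.04 without it. The cause was not tested. The compared groups alone gave 30 higher for the SB431542 interaction and 4 lower for the CLK8 interaction.

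Leaving out 1 library at a time gave these ranges. TGFb against vehicle had 4 to 7 higher and 41 to 47 lower, SB431542 1 to 2 and 0 to 1, SR9011 13 to 22 and 22 to 35, and CLK8 18 to 30 and 3 to 4. SB431542+TGFb against TGFb had 39 to 43 higher and 4 to 10 lower, SR9011+TGFb 14 to 21 and 16 to 18, and CLK8+TGFb 8 to 13 and 8 to 12. The interactions had 11 to 23 and 2 to 5 for SB431542, 13 to 37 and 7 to 15 for SR9011, and 0 and 1 to 4 for CLK8. The SB431542 interaction had 12 higher without vehicle replicate 2, 11 without SB431542 replicate 3 and 5 lower without vehicle replicate 1. SB431542 had 1 higher without vehicle replicate 1 or 3 or SB431542 replicate 3, and 1 lower without SB431542 replicate 1. SB431542+TGFb had 4 lower without TGFb replicate 1, and SR9011+TGFb had 14 higher without SR9011+TGFb replicate 2.

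For none of the 7 pairs of groups compared directly did all 3 pairs of same-numbered libraries deviate together with a correlation above 0.1, so the numbers were not taken to pair samples. SB431542 and SB431542+TGFb, which meet in the interaction alone, did so. With the replicate number as a block, the CLK8 interaction had 4 lower calls, and no other count moved past 1.5 times.

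Depth per library is unknown, so counting error cannot be separated. Members near 1 FPKM, such as Cox6a2 and Cox7a1, are the least precise on the log scale. Groups of 3 libraries from 1 cell line do not cover other lines or animals.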
